A study of Mus musculus with 6 samples.

Results

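Lgr5-positive stem cells of the small-intestinal crypt were examined in single-cell transcriptomes of the mouse gut epithelium. A cell barcode was counted as a member when it held at least 1 UMI of Lgr5 and at least 2 of the 6 genes Ascl2, Gkn3, Axin2, Smoc2, Sfrp5 and Igfbp4, and no UMI of Atoh1 or Neurog3. A UMI is a molecular tag that marks 1 captured RNA molecule. This rule is called the gate below. These readouts chose the members, so their levels are given as a description and without a test. Of 26045 barcodes kept after quality limits, 1851 were members (7.11%). The Itgb7 KO libraries gave 231, 291 and 217 members, and the wild-type libraries gave 265, 492 and 355. The other 24194 kept barcodes served as one comparison set. Another was the 7754 Lgr5-negative cycling barcodes, which held no UMI of Lgr5, Atoh1 or Neurog3 and at least 5 of 10 cell-cycle genes.

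The study measured 3 libraries labelled Itgb7 KO and 3 labelled wild-type, all from small-intestinal epithelial cells of C57BL/6J mice aged 8 weeks, with 10x 3′ reagents. Itgb7 encodes the β7 integrin chain, and the series title asks whether T cells that carry integrin αEβ7 steer the fate of intestinal stem cells. The labels give no cell type, promoter or exon for the deletion and do not say how many animals made up a library. So a p-value here measures only how these libraries spread, and that spread may be technical.

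Lgr5 encodes a receptor for R-spondins, secreted proteins that strengthen Wnt signalling, and marks the slender dividing cells wedged between Paneth cells at the crypt base. Wnt signals from the niche stabilise β-catenin, which acts with TCF factors on target genes such as Axin2, Ascl2 and Sox9 and keeps these cells undifferentiated. Notch signals between neighbouring cells hold back Atoh1 and with it the secretory fate, and in mice some Lgr5 stem cells also carry MHC class II molecules, which present peptides to CD4 T cells.

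The libraries differed in depth. Those labelled Itgb7 KO held 62224718, 57949476 and 28475253 UMIs, and the wild-type ones held 76133693, 63316811 and 63647862. Members had medians of 19799, 9466 and 5889 UMIs in the Itgb7 KO libraries and of 23984, 12428 and 13348 in wild-type, and the other kept barcodes of 19529, 9285 and 6116 in Itgb7 KO and 22292, 11877 and 12029 in wild-type. The Lgr5-negative cycling barcodes were deeper than members in every library, with medians of 21290, 11417 and 7701 UMIs in Itgb7 KO and 24103, 13638 and 13684 in wild-type. Both libraries numbered 1 stood apart. The smallest UMI total of a barcode there was 7754 in Itgb7 KO and 13621 in wild-type, against 1417 to 2946 elsewhere, and Paneth markers summed to 4822 CPM (UMIs per 1000000 UMIs) in the Itgb7 KO members of that number and 20504 CPM in the wild-type ones, against 393 to 863 CPM in the members of the other 4 libraries. No member barcode occurred in more than 1 library, and 12 to 42 kept barcodes were shared by each pair of libraries. Itgb7 gave 1, 0 and 0 UMIs in Itgb7 KO members and 0, 0 and 0 in wild-type members. In the other kept barcodes it gave 17, 33 and 12 UMIs in the libraries labelled Itgb7 KO, against 3, 8 and 2 in wild-type. A 3′ tag can lie outside the deleted part, so these counts check no label, and every direction below rests on the labels.

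Promoter sequences are shown for the 2 gene groups on which the results turn, from RefSeq in build GRCm38.p6, 250 bases before to 50 after the start, 5′ to 3′. The MHC class II group was taken because all of its tested genes lay higher in the Itgb7 KO members. Sp5, a transcription factor gene and Wnt target, was taken because it stood 2.58 log2 units higher in members than in the other kept barcodes. Of the promoters searched, only those with a match are printed. H2-Ab1 and Lgr5 had no promoter in the reference, and Cd74 was not searched. In the first 3 sequences the capitals mark the Y box letters TGATTGG, the site that the factor NF-Y binds in class II promoters, here on the printed strand. In the last they mark CTTTGA, the core letters of a TCF site. Sp5, H2-DMa, Tnfrsf19, Ephb3, Fzd7, Wnt3, Creb3l1 and Ccl9 were chosen for the text after their values were seen.
H2-Aa (chr17:34287774-34288073, minus strand): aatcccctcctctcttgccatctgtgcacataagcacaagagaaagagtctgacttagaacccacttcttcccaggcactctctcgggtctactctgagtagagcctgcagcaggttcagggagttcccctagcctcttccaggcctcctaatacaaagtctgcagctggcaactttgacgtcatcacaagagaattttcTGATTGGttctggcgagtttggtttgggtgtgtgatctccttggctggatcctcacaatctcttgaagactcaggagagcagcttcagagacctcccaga
H2-Eb1 (chr17:34305617-34305916, plus strand): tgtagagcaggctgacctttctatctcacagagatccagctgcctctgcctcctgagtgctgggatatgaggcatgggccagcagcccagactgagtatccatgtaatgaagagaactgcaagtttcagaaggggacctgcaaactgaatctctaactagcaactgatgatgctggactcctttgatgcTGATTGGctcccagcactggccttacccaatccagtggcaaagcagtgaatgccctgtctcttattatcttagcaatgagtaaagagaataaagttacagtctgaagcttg
H2-DMb1 (chr17:34152941-34153240, plus strand): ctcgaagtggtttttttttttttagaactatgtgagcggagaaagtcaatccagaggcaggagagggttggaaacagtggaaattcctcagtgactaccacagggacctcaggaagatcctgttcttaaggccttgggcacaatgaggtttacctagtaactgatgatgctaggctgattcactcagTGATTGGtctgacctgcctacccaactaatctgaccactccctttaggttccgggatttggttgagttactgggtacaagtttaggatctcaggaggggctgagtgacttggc
Sp5 (chr2:70474673-70474972, plus strand): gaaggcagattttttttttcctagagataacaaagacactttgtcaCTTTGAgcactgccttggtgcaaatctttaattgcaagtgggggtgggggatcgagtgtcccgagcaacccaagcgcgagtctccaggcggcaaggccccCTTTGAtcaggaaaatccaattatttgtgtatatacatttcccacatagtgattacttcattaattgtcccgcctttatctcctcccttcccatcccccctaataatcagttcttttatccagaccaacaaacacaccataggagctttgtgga
Each of the 3 class II promoters held 1 Y box, starting at base 201 in H2-Aa, 190 in H2-Eb1 and 188 in H2-DMb1, and 7.82% of 32851 mouse promoters of this length held the letters on either strand. H2-DMa had 2 windows with 0 matches. Sp5 held 2 CTTTGA matches, the first at base 47, and 16.003% of promoters held 1 or more on either strand, while the windows of Ascl2 and Axin2 held 0. The letters CTTTGA also occur, unmarked, in the printed H2-Aa and H2-Eb1 sequences, so they do not set Sp5 apart from these. A match is a description of the letters and not a measured site.

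The genes of the gate described how firmly each barcode carried the stem cell programme. Of the members, 227 held exactly 2 of the 6 further genes, 318 held 3, 467 held 4, 536 held 5 and 303 held all 6. Smoc2, which encodes a matricellular protein of the crypt base, was detected in 74.7% to 97.0% of members by library. Ascl2, a Wnt-driven transcription factor that sets stem cell identity, was detected in 51.2% to 81.5%, and Gkn3 in 56.6% to 64.9%. A single Lgr5 UMI had admitted 53.7%, 69.8% and 64.1% of members in the Itgb7 KO libraries and 48.3%, 50.8% and 53.8% in wild-type. Lgr5 itself stood at 84.8, 135 and 236 CPM in the Itgb7 KO libraries, against 78.3, 144 and 141 CPM in wild-type. The highest value lay in the shallowest library. The gate asks for 1 UMI at any depth. Ascl2 stood at 110.0, 129.9 and 127 CPM in the Itgb7 KO libraries, against 108, 144 and 106 CPM in wild-type, and these values overlapped. In the 10% of barcodes richest in enterocyte transcripts, which should lack the gene, Lgr5 was detected in 1.43%, 2.44% and 1.75% of Itgb7 KO and 3.24%, 3.96% and 3.502% of wild-type barcodes, against 6.70% to 15.4% of all kept barcodes. Those enterocyte-rich barcodes had medians of 6591 to 21243.5 UMIs.

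Members just inside the limit were set beside barcodes just outside it for genes that the gate did not use. Slc12a2, the basolateral sodium, potassium and chloride cotransporter that is high in crypt base cells, stood at 169, 407 and 631 CPM in Itgb7 KO barcodes with exactly 2 further genes, and at 95.7, 351 and 299.6 CPM in such wild-type barcodes. With exactly 1 further gene it stood at 59.8, 156 and 339.7 CPM in Itgb7 KO and 45.1, 111 and 96.8 CPM in wild-type. The level of Slc12a2 inside the limit was higher in 6 of 6 libraries. Olfm4 was less distinct, at 16.7, 102 and 99.95 CPM inside and 3.99, 55.6 and 99.9 CPM outside in Itgb7 KO, and at 13.1, 70.5 and 76.0 CPM inside and 5.88, 48.0 and 78.6 CPM outside in wild-type. It was nearly equal in Itgb7 KO replicate 3 and lower inside in wild-type replicate 3. These sets held 13 to 63 barcodes per library.

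Lgr5-positive barcodes were divided by the further genes detected after thinning to 4000 UMIs, while levels were taken from all their UMIs. Thinning can hide a UMI of Atoh1 or Neurog3, so barcodes with such UMIs at full depth could enter these sets. Some genes ran with the number of further genes and others did not. With 0, 1, 2, 3 and 4 to 6 further genes detected, the cholesterol-esterifying enzyme gene Soat1 had median levels over the 6 libraries of 23.8, 71.2, 89.2, 109.9 and 129 CPM. Sox9, a Wnt target and transcription factor of the crypt, had 53.5, 122, 152, 154 and 187 CPM. The 20 S-phase genes summed to 1025, 1756, 1886, 1838 and 2043 CPM. Transcripts of differentiated cells ran the other way: 10 enterocyte markers summed to 2925, 1019, 768, 761 and 610.0 CPM and 7 goblet markers to 15717, 7112, 2934, 2525 and 2173 CPM. Mki67 had medians of 60.5, 83.2, 75.6, 72.4 and 59.0, class II genes of 824, 948, 1146, 1349 and 914 and Olfm4 of 70.7, 74.5, 93.9, 84.5 and 98.3 CPM over the same 5 sets, with no steady order. Paneth markers summed to 3326, 2393, 424, 626 and 458 CPM. For Soat1, Sox9, S-phase, enterocyte and goblet values the largest step lay between 0 and 1 further gene, below the limit of the gate, and each set held 12 to 71 barcodes per library.

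**Figure D1:**
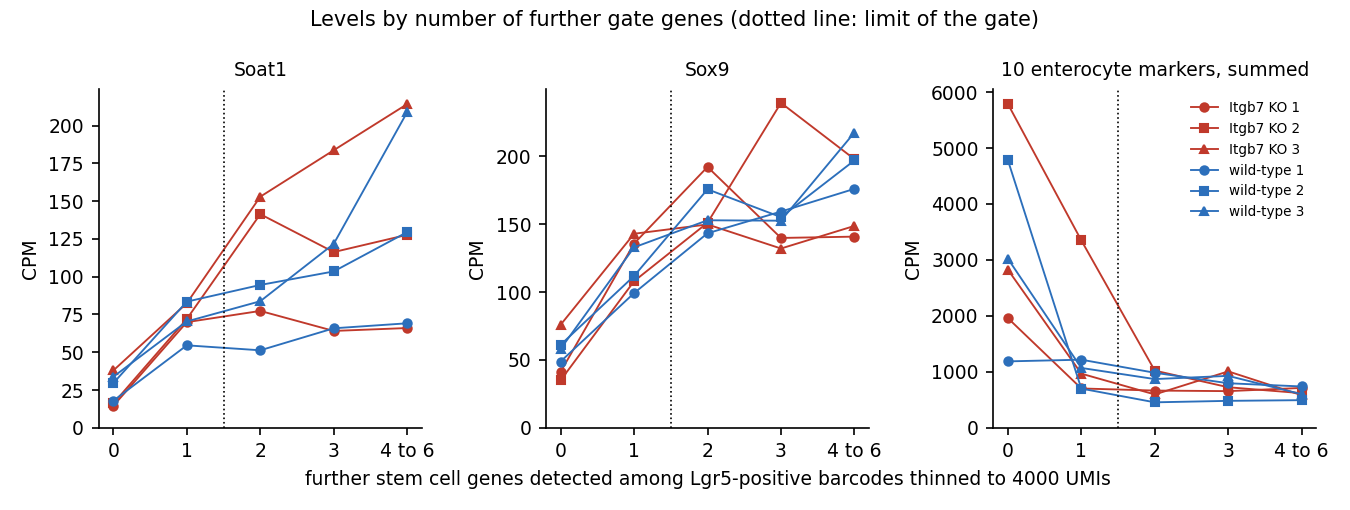
CPM of Soat1, of Sox9 and of 10 summed enterocyte markers (vertical axes) against the number of further stem cell genes detected in Lgr5-positive barcodes. Genes were detected after thinning to 4000 UMIs, and CPM were taken from all UMIs. Each library has 1 line, and a dotted line marks the limit of the gate. Median Soat1 stood at 23.8 CPM with 0 further genes and at 129 CPM with 4 to 6, and the median enterocyte sum at 2925 and 610.0 CPM.

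Stem cell genes that the gate did not use were enriched together in the members. Of 14 such markers all 14 were called higher than in the other kept barcodes, with a median log2 fold change of 1.72, where edgeR called 34.1% of 11953 tested genes higher and 34.2% lower (adjusted p under 0.05). Against Lgr5-negative cycling barcodes all 14 were again called higher, with a median of 1.36, beside 26.3% of 10809 genes higher and 26.8% lower. The marker genes outside the rule thus matched the label of crypt stem cells. Both sets of a comparison came from the same barcodes that the gate divided, so these folds are descriptions of the gate and not independent tests.

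Slc12a2 stood at 289, 444 and 668 CPM in Itgb7 KO members and 274, 475 and 365 CPM in wild-type members. In the other kept barcodes it stood at 85.8, 115 and 171 CPM in Itgb7 KO and 84.4, 154 and 94.7 CPM in wild-type, a log2 fold change of 1.69 ± 0.06 (SE) for members over others. No library overlapped between members and others. Tnfrsf19 (Troy), a Wnt-induced receptor of the tumour necrosis factor family, averaged 12.7 ± 2.44 CPM in members and 1.19 ± 0.486 CPM in the others (SD, n = 6 libraries), with a log2 fold change of 3.20 ± 0.18. Cdca7, a Myc-regulated gene linked to chromatin and DNA replication, averaged 285 ± 57.5 CPM in members and 67.5 ± 16.3 CPM in the others. Cd44, a hyaluronan receptor and Wnt target, averaged 82.5 ± 11.8 CPM in members and 16.5 ± 3.38 CPM in others, and Cdk6, a kinase of the G1 phase, 157 ± 47.8 CPM in members and 42.0 ± 10.6 CPM in others. Prom1, which also marks dividing progenitors, differed least of those named, at 112 ± 31.8 CPM in members and 64.6 ± 10.8 CPM in others, a log2 fold change of 0.63 ± 0.06.

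**Figure D2:**
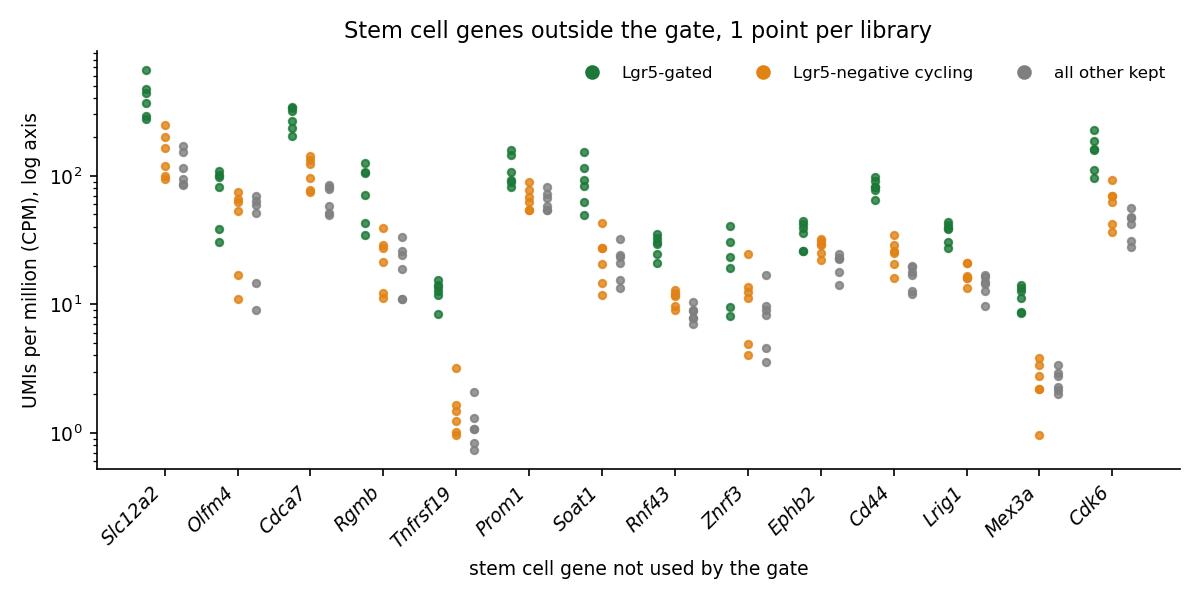
Levels of 14 stem cell genes not used by the gate (horizontal axis) in CPM on a log axis, with 1 point per library for members, Lgr5-negative cycling barcodes and all other kept barcodes. The 6 members' points of Slc12a2 lie between 274 and 668 CPM, and those of the other kept barcodes between 84.4 and 171 CPM.

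Of 13 tested Wnt targets, 12 were called higher in members than in the other kept barcodes and 1 lower. Rnf43, Znrf3, Tnfrsf19, Ephb2 and Cd44 were also counted among the stem cell markers above, so the 2 lists are not separate results. The 1 lower was Mmp7, which is also on the Paneth list. The median log2 fold change was 1.37, and 34.1% of all tested genes were called higher and 34.2% lower. Against cycling barcodes 11 targets were called higher, beside 26.3% of all tested genes. Sp5 averaged 34.0 ± 4.45 CPM in members and 5.15 ± 0.888 CPM in the others (SD, n = 6 libraries), a log2 fold change of 2.58 ± 0.09 (SE). Sox9 averaged 141 ± 24.1 CPM in members and 49.7 ± 7.45 CPM in others, and Myc, a driver of growth and division, 65.2 ± 28.5 CPM in members and 23.5 ± 10.6 CPM in others. Ephb3, a receptor that positions cells along the crypt, stood 1.72 ± 0.08 higher on the log2 scale than in the others and 1.90 ± 0.09 higher than in cycling barcodes. The cyclin gene Ccnd2 differed little, at 0.12 ± 0.04.

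Of 17 receptors and signal transducers of the pathway, 8 were called higher and 3 lower, where 34.1% of all tested genes were called higher and 34.2% lower. Among receptors, Fzd7, which carries Wnt signals in mouse crypt stem cells, averaged 14.4 ± 5.46 CPM in members and 3.83 ± 1.497 CPM in the others, a log2 fold change of 1.77 ± 0.11. Fzd5 ran the other way, at 34.0 ± 3.17 CPM in members and 50.6 ± 8.42 CPM in others, with a fold change of −0.67 ± 0.04. Lgr4, the paralogue of Lgr5 that is expressed more widely in the crypt, differed by 0.23 ± 0.04. Ctnnb1, which encodes β-catenin, was not called, with 189 ± 20.3 CPM in members and 178 ± 21.7 CPM in others. Wnt3, a ligand made in the epithelium by Paneth cells, was lower in members than in the others, by a log2 fold change of −1.08 ± 0.17, and Wls, needed to secrete Wnt proteins, was higher at 0.63 ± 0.07.

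Notch and secretory fate genes differed in both directions. Of 11 Notch pathway genes, 6 were called higher in members than in the other kept barcodes and 4 lower. Of all tested genes 34.1% were called higher and 34.2% lower, so the share of Notch genes called lower was near that of all genes. The receptor gene Notch1 averaged 31.8 ± 5.08 CPM in members and 9.68 ± 1.64 CPM in others, and the Notch target Hes1, a repressor of Atoh1, 299.98 ± 34.4 CPM in members and 157 ± 18.2 CPM in others (log2 fold changes 1.60 ± 0.07 and 0.81 ± 0.04, SE). Of 12 secretory fate genes, 8 were called lower and 2 higher against the others. Against cycling barcodes, however, 6 of 10 were called higher and 1 lower, beside 26.3% of all tested genes higher and 26.8% lower. The 2 higher against the others were Sox4 at 1.66 ± 0.04 and Hes6 at 0.39 ± 0.05, both transcription factor genes. The Notch ligand gene Dll1 averaged 13.0 ± 5.10 CPM in members, 9.03 ± 1.36 CPM in cycling barcodes and 31.0 ± 7.14 CPM in all others. Creb3l1, a factor of secretory cells, differed by −2.60 ± 0.10 against the others. The others hold every barcode with a UMI of Atoh1 or Neurog3, which the gate removed from members and from cycling barcodes, so this contrast of secretory genes is set in part by the rule.

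Absorptive fate genes were more often called lower than higher, with 1 of 9 called higher and 5 lower against the others. Hnf4a, a nuclear receptor of enterocytes, stood at 137 ± 29.3 CPM in members and 124 ± 24.3 CPM in others and was not called. Klf4, which restrains division in differentiating cells, stood at 31.2 ± 4.68 CPM in members and 84.8 ± 15.4 CPM in others. The intestinal identity factor Cdx2 stood at 187 ± 21.2 CPM in members and 156 ± 18.1 CPM in others. The following 3 lists had shares called higher near the 34.1% of all tested genes (34.2% lower). Of 12 BMP and TGF-beta genes, 4 were called higher and 6 lower, among them the BMP target Id3, with a log2 fold change of −0.92 ± 0.05. Of 10 EGF-family genes, 3 were called higher and 5 lower, and Lrig1, a brake on ErbB receptors that marks stem cells, was higher at 1.24 ± 0.05. Of 6 tested genes of regeneration and YAP, 2 were called higher and 3 lower. The EGF-family ligand gene Areg differed by −1.79 ± 0.07, and the YAP target Cyr61 by 0.40 ± 0.09 against the others and by 1.52 ± 0.06 against cycling barcodes.

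Cell-cycle genes were higher in members. All 20 tested S-phase genes and all 20 G2 and M-phase genes were called higher than in the other kept barcodes. The median log2 fold changes were 0.88 and 0.68, and 34.1% of all tested genes were called higher. Against cycling barcodes, which were chosen by such genes, the medians were 0.25 and 0.00. At 4000 UMIs, at least 5 of the 10 cell-cycle genes were detected in 40.4, 35.0 and 38.8% of Itgb7 KO members and 49.2, 41.5 and 32.0% of wild-type members, against 18.3% to 26.4% of other kept barcodes. Without thinning, the share of members was 51.6% to 96.6%. Among cell-cycle inhibitors, Cdkn1a (p21) averaged 50.6 ± 12.7 CPM in members and 169 ± 29.1 CPM in others, and Cdkn2b (p15) 16.7 ± 7.15 CPM in members and 83.6 ± 14.9 CPM in others. Their log2 fold changes were −1.83 ± 0.12 and −2.42 ± 0.10 (SE). Cdkn1b (p27) went the other way, at 0.44 ± 0.05.

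The genes with the largest increases at a mean of at least 5 log2 CPM, each higher in members of 6 of 6 libraries, were Rgcc, Cd44, Amica1, Cdca7, Soat1, Ifitm3, Aqp4, Rgmb, Cdk6, Clca3b, Slc12a2 and Sox4. Rgcc, a regulator of cell-cycle kinases, averaged 92.0 ± 31.7 CPM in members and 14.0 ± 4.65 CPM in others, a log2 fold change of 2.57 ± 0.07. Rgmb, a co-receptor for BMP ligands, averaged 81.3 ± 37.3 CPM in members and 20.8 ± 8.86 CPM in others, and Aqp4, a water channel, 76.9 ± 6.26 CPM in members and 19.1 ± 2.78 CPM in others. Ifitm3, an interferon-inducible membrane protein that restricts viral entry, averaged 655 ± 286 CPM in members and 159 ± 69.7 CPM in others. Against cycling barcodes, the increases were led by Rgcc, Soat1, Rgmb, Sox4, Cd44, Phlda1, Foxa3, Cyr61, Slc12a2, Amica1, Nrtn and H2-Aa. Phlda1 stood at 168 ± 42.7 CPM in members and 53.4 ± 20.0 CPM in cycling barcodes, and Nrtn, which encodes the neurotrophic factor neurturin, at 59.5 ± 7.37 CPM in members and 22.1 ± 5.51 CPM in cycling barcodes.

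Genes of differentiated cells led the decreases in members. Against the others these were the goblet genes Rep15, Tff3, Zg16, Agr2, Clca1 and Spink4, the guanylin gene Guca2a and the chemokine gene Ccl6, with log2 fold changes between −3.53 and −3.16. Against the others, 34.2% of all tested genes were called lower. All 7 goblet markers, all 7 Paneth markers, all 9 enteroendocrine markers and all 10 enterocyte markers were called lower. Wild-type replicate 1 went against this for enteroendocrine markers, which summed to 735 CPM in its members and 274 CPM in its others, with the hormone gene Gip at 359.6 CPM in members and 55.9 CPM in others. Against cycling barcodes the decreases were led by Gsdmc4, Cdkn2b, Fabp6, Rbp7, Apol10a, Sis, Car4 and Spink1. Sis, the sucrase-isomaltase of the brush border, stood at 57.8 ± 31.4 CPM in members and 188 ± 83.6 CPM in cycling barcodes, and Fabp6, an ileal bile acid binding protein, at 60.0 ± 48.4 CPM in members and 218 ± 183 CPM in cycling barcodes. Traces of other cell types remained in members. The goblet markers summed to 1959.8 to 7285 CPM in members and 23453 to 39989 CPM in others by library, and enterocyte markers to 671 to 1389 CPM in members and 3361 to 6099 CPM in others. Tuft markers summed to 1.36 to 10.99 CPM in members. T cell markers gave 0 to 1.13 CPM, with 5 of the 10, among them Cd3g and Cd8a, at 0 in all members, and stromal and vessel markers gave 0.582 to 5.67 CPM with 3 of 6 at 0. Myeloid markers gave 3.56 to 9.35 CPM and B cell markers 0 to 2.33 CPM.

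MHC class II genes were part of the profile of members in both genotypes. All 7 tested class II genes were called higher in members than in the others, with a median log2 fold change of 1.12, and all 6 tested against cycling barcodes, with a median of 0.88. The α chain gene H2-Aa differed by 1.62 ± 0.13 against the others and H2-Eb1, a β chain gene, by 1.46 ± 0.10. Cd74, the invariant chain that guides class II molecules to endosomes, differed by 1.12 ± 0.14. MHC class I and antigen-processing genes differed from this pattern, with 1 of 13 called higher and 10 lower against the others. Of 23 interferon response genes, 3 were called higher, Ifitm3 among them, and 15 lower. Immediate early and stress genes were lower in 11 of 12, among them Junb at −1.06 ± 0.06 and Fos at −0.80 ± 0.07. Beside the counts of these lists, 34.1% of all tested genes were called higher and 34.2% lower against the others. Against cycling barcodes the shares were 26.3% and 26.8%.

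The share of members among kept barcodes was compared between genotypes at equal depth, because detection in the gate depends on UMIs per barcode. At 4000 UMIs, members made up 2.04, 2.54 and 3.23% of Itgb7 KO barcodes and 2.20, 3.76 and 2.46% of wild-type barcodes. The means were 2.61% ± 0.599 in Itgb7 KO and 2.81% ± 0.838 in wild-type (SD, n = 3 each), and the groups overlapped. The log2 ratio of Itgb7 KO over wild-type was −0.09 (exact 2-sided permutation test, p = 0.7, where 3 against 3 libraries allow no p below 0.1). Barcodes below 4000 UMIs were left out, 0, 222 and 577 in Itgb7 KO and 0, 51 and 178 in wild-type. As deposited, the shares were 8.28, 5.08 and 4.75% in Itgb7 KO and 9.56, 9.75 and 6.91% in wild-type, with a log2 ratio of −0.56 (p = 0.2, same exact test). At 6000 UMIs they were 3.33, 3.37 and 3.25% in Itgb7 KO and 3.61, 6.33 and 4.06% in wild-type, where the groups did not overlap and the log2 ratio was −0.45 (p = 0.1, same exact test). This left out 0, 713 and 2162 barcodes in Itgb7 KO and 0, 229 and 359 in wild-type. At 2500 UMIs the shares were 0.932, 1.08 and 1.68% in Itgb7 KO and 1.12, 2.18 and 1.34% in wild-type, with overlap. Leaving out libraries or a gate gene was tried at 4000 UMIs only. There the sign of the log2 ratio turned without Itgb7 KO replicate 1 (0.07), without wild-type replicate 2 (0.14) or with Igfbp4 taken out of the gate (0.02).

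**Figure D3:**
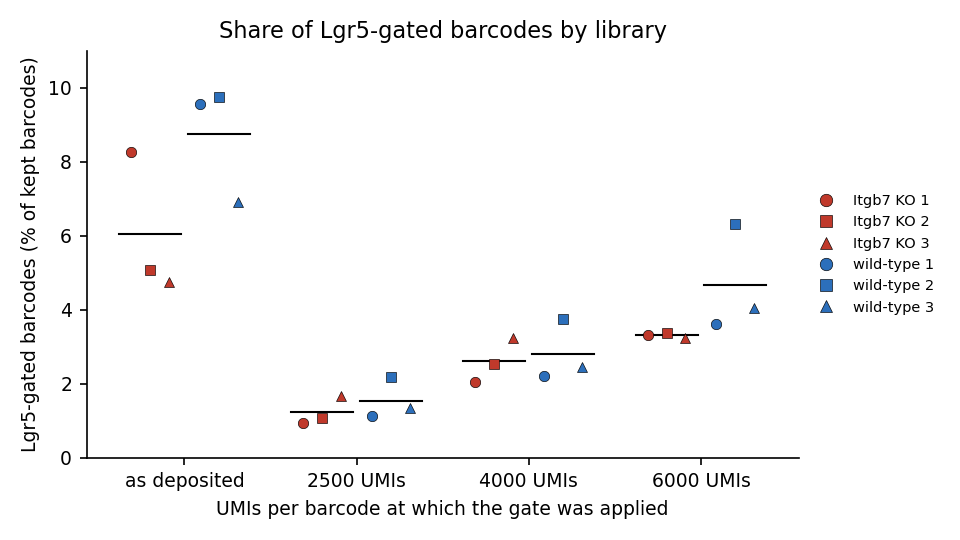
Share of members among kept barcodes in percent (vertical axis) for each library, with the Itgb7 KO libraries left of wild-type, for barcodes as deposited and thinned to 2500, 4000 and 6000 UMIs; bars are group means. The groups overlap at 4000 UMIs, where Itgb7 KO libraries lie at 2.04, 2.54 and 3.23% and wild-type libraries at 2.20, 3.76 and 2.46%.

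Within members, Itgb7 KO libraries were then set against wild-type over 10544 tested genes. With genotype as the only term edgeR called 0 genes (0% of those tested), while 276 genes had an unadjusted p under 0.05 and DESeq2 called 6. With replicate number as a block edgeR called 7 genes. Deviations from the group means correlated at 0.561 between both libraries numbered 1, 0.181 between those numbered 2 and 0.127 between those numbered 3, but at 0.414 between Itgb7 KO replicate 3 and wild-type replicate 2. The 7 genes were H2-Aa, H2-DMa, Psmb8, H2-Ab1 and H2-Eb1, which rose, and Agpat4 and Ang4, which fell (adjusted p from 0.0187 to 0.0451). DESeq2's 6 were Agpat4, Psmb8, Hbegf, Cd74, H2-DMb1 and Atf3. In simulated counts of this size edgeR recovered 43.5% of genes changed 2-fold and 100% of those changed 4-fold. These counts were drawn at a fixed dispersion, with only depth and the set change differing between libraries. Only genes with enough counts were changed. The real libraries differed in more ways, so these shares do not say which real changes would be called.

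MHC class II had the highest median of the lists tested in Itgb7 KO members. All 6 tested class II genes had a log2 fold change above 0 and no overlap between the groups, with a median of 1.53. Over all tested genes 50.5% lay above 0, 3.85% were higher with no overlap and 3.4% were lower with no overlap, and the median was 0.00. Summed over the list, class II transcripts made 1927, 1419.6 and 1521 CPM in Itgb7 KO members and 788, 272 and 579 CPM in wild-type members. The lowest Itgb7 KO library lay above the highest wild-type one. At 4000 UMIs, 1 or more class II UMI was found in 96.5, 84.3 and 84.5% of Itgb7 KO and 68.9, 48.9 and 61.5% of wild-type members, with means of 8.86, 7.39 and 6.18 UMIs per member in Itgb7 KO and 3.74, 1.49 and 2.89 in wild-type. The other kept barcodes showed 81.4, 67.2 and 68.8% in Itgb7 KO and 55.3, 19.6 and 44.6% in wild-type, and the enterocyte-rich barcodes 78.2, 50 and 50.8% in Itgb7 KO and 39.6, 5.98 and 28.8% in wild-type. The list's median stayed between 1.16 and 1.98 over 19 settings, and was 1.74 without both libraries numbered 1.

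H2-Aa stood at 149, 62.1 and 89.6 CPM in the Itgb7 KO libraries, against 42.1, 11.3 and 30.05 CPM in wild-type. Its log2 fold change was 1.81 ± 0.51 (SE, edgeR adjusted p = 0.9996), and 1.88 ± 0.18 with the replicate block (edgeR adjusted p = 0.0187). DESeq2 did not call H2-Aa, nor did edgeR with a block by library serial number. Its β chain partner gene H2-Ab1 stood at 337, 211 and 206 CPM in the Itgb7 KO libraries, against 131, 51.0 and 99.0 CPM in wild-type. H2-Eb1 stood at 195, 115 and 139.7 CPM in the Itgb7 KO libraries, against 74.6, 21.1 and 55.7 CPM in wild-type. In these 3 genes every Itgb7 KO library lay above every wild-type library, and wild-type replicate 2 was lowest. H2-DMa, a chain of the chaperone that loads peptides onto class II, stood at 65.2, 43.3 and 58.04 CPM in the Itgb7 KO libraries, against 28.0, 14.3 and 25.1 CPM in wild-type. Its partner H2-DMb1 stood at 25.2, 23.3 and 27.2 CPM in the Itgb7 KO libraries, against 11.6, 5.12 and 7.67 CPM in wild-type. Cd74 stood at 1154, 962 and 998 CPM in the Itgb7 KO libraries, against 499, 169 and 360.3 CPM in wild-type. The log2 fold changes of these 5 genes were 1.37 ± 0.38, 1.52 ± 0.45, 1.26 ± 0.30, 1.55 ± 0.31 and 1.53 ± 0.38 in that order. H2-DMb2 gave no UMI in members, and Ciita, the class II transactivator, was too rare to test. The genes lie together on chromosome 17 (chr17:34282744-34287823 for H2-Aa, chr17:34257689-34269419 for H2-Ab1 and chr17:34305867-34316674 for H2-Eb1, mm10), except Cd74 on chromosome 18.

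**Figure D4:**
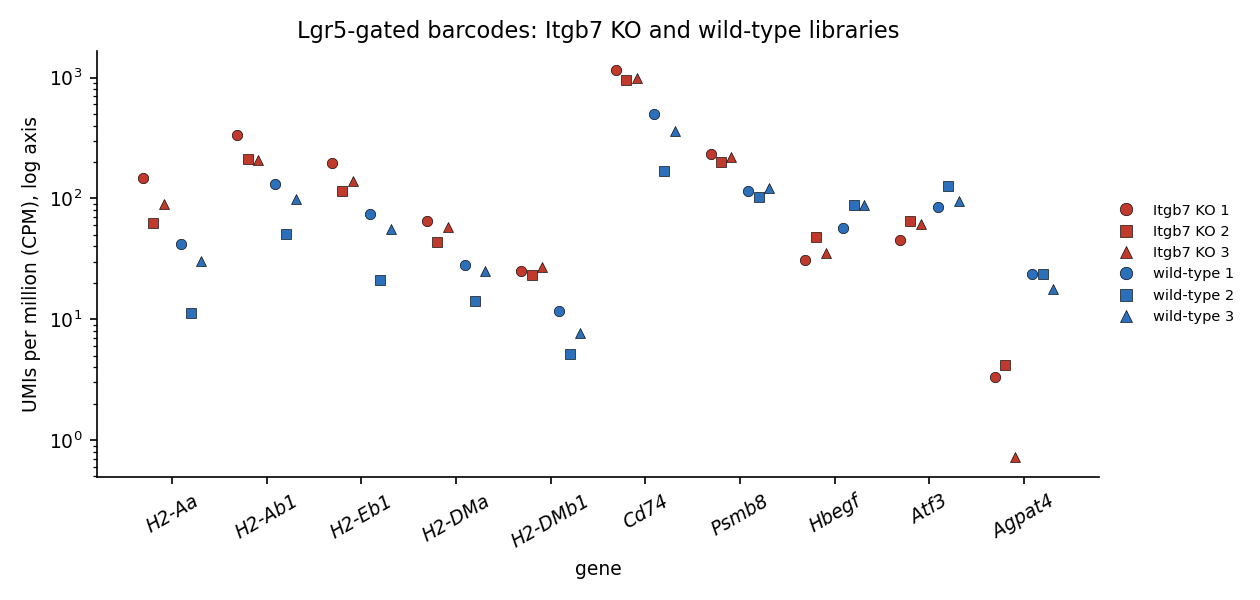
Levels of 10 genes (horizontal axis) in members, in CPM on a log axis, with 1 point per library and the Itgb7 KO libraries left of wild-type. For each of the 6 class II genes and Psmb8 the Itgb7 KO points lie above all wild-type points, and for Hbegf, Atf3 and Agpat4 they lie below them.

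MHC class I genes, which present peptides to CD8 T cells, lay higher by less. All 13 tested had a log2 fold change above 0, with a median of 0.37, and 7 had no overlap. Over all tested genes 50.5% lay above 0 and 3.85% were higher with no overlap. The list summed to 3722, 3278 and 3070.5 CPM in Itgb7 KO members and 2561, 2529.9 and 2575 CPM in wild-type members. Psmb8, a catalytic subunit of the immunoproteasome, which cuts proteins into peptides for class I, stood at 235, 200.1 and 219 CPM in the Itgb7 KO libraries, against 115, 102 and 121 CPM in wild-type. Its log2 fold change was 0.91 ± 0.16 (edgeR adjusted p = 0.9996, and 0.0451 with the replicate block). The class I heavy chain gene H2-D1 stood at 349, 367 and 302 CPM in the Itgb7 KO libraries, against 241, 235 and 275 CPM in wild-type, and B2m, the light chain, at 1230.4, 1099.6 and 1111 CPM in the Itgb7 KO libraries, against 842, 987 and 887 CPM in wild-type. Neither overlapped between the groups.

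Interferon response genes had a log2 fold change above 0 in all 16 tested, with a median of 0.82, but 3 of the 16 had no overlap. Over all tested genes 50.5% lay above 0 and 3.85% were higher with no overlap. Without both libraries numbered 1 the median of the interferon list was 0.24. The list summed to 1832, 997 and 1111 CPM in Itgb7 KO members and 654, 650.4 and 1019 CPM in wild-type, and these ranges overlapped. Ifitm3 stood at 1174, 602 and 697 CPM in the Itgb7 KO libraries, against 410.3, 382 and 662 CPM in wild-type. Irf1, a transcription factor gene of the interferon response, stood at 54.7, 62.7 and 49.4 CPM in the Itgb7 KO libraries, against 45.3, 35.2 and 41.0 CPM in wild-type. AW112010, a transcript of immune activation in mice, stood at 57.6, 54.9 and 78.8 CPM in the Itgb7 KO libraries, against 35.5, 32.0 and 32.7 CPM in wild-type, with no overlap and a log2 fold change of 0.87 ± 0.18 (edgeR adjusted p = 0.9996).

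Among genes lower in Itgb7 KO members, Agpat4, an acyltransferase of phospholipid synthesis, had the smallest p. It gave 17, 13 and 1 UMIs in Itgb7 KO members and 168, 154 and 86 in wild-type members, or 3.30, 4.20 and 0.717 CPM in the Itgb7 KO libraries, against 23.8, 23.9 and 17.8 CPM in wild-type. The log2 fold change was −2.83 ± 0.33 (edgeR adjusted p = 0.179), and −2.91 ± 0.28 with the replicate block (edgeR adjusted p = 0.0187). The other kept barcodes held 2.33, 2.28 and 1.93 CPM in Itgb7 KO and 17.2, 16.9 and 15.1 CPM in wild-type, and the difference of the log2 fold changes was 0.07 ± 0.29 (SE), not called by edgeR. Agpat4 lies at chr17:12118704-12219645 on the same chromosome as the class II genes. Mtus2, a microtubule-associated gene, stood at 0.970, 1.94 and 0 CPM in the Itgb7 KO libraries, against 4.39, 8.53 and 5.39 CPM in wild-type.

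Further genes among those with the smallest p were lower in Itgb7 KO members, and edgeR with genotype as the only term called none of them. Hbegf, a ligand of the EGF receptor, stood at 31.0, 47.5 and 35.1 CPM in the Itgb7 KO libraries, against 56.7, 87.8 and 88.5 CPM in wild-type, a log2 fold change of −1.08 ± 0.19 (edgeR adjusted p = 0.9996). Atf3, a stress-induced transcription factor gene, stood at 45.4, 65.3 and 61.6 CPM in the Itgb7 KO libraries, against 85.0, 128 and 94.9 CPM in wild-type. Zfp36, which encodes an RNA-binding protein that destabilises inflammatory transcripts, stood at 34.1, 60.8 and 51.6 CPM in the Itgb7 KO libraries, against 62.5, 97.4 and 98.2 CPM in wild-type. In Hbegf and Atf3 the groups did not overlap, and in Zfp36 the highest Itgb7 KO library lay just below the lowest wild-type library. Csrnp1 stood at 1.75, 1.62 and 2.87 CPM in the Itgb7 KO libraries, against 3.82, 6.83 and 5.59 CPM in wild-type. Cdkn1a stood at 29.7, 45.6 and 46.6 CPM in the Itgb7 KO libraries, against 63.0, 61.9 and 56.98 CPM in wild-type, a log2 fold change of −0.66 ± 0.17 (edgeR adjusted p = 0.9996). The immediate early and stress list as a whole had a median of −0.19, with 4 of 12 genes above 0. Its log2 fold changes ranged from −0.89 to 1.45, and 2 of its genes were higher and 2 lower with no overlap. Of all tested genes 3.85% were higher and 3.4% lower with no overlap. Of the 10 genes with the smallest p, Grm4, a metabotropic glutamate receptor gene, was higher, at 18.4, 9.70 and 8.60 CPM in the Itgb7 KO libraries, against 0.425, 3.10 and 3.73 CPM in wild-type.

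For genes of stem cell identity and fate the list medians lay between −0.21 and 0.08 between genotypes, and edgeR called none of these genes with or without the replicate block. The median log2 fold change was 0.08 over 14 stem cell markers outside the gate, −0.05 over 16 Wnt receptors and transducers, 0.04 over 13 Wnt targets and 0.00 over 11 Notch genes. It was −0.19 over 10 secretory and −0.21 over 8 absorptive fate genes, where 1 of 8 lay above 0. Single genes reached further, down to −0.81 among secretory genes and −0.97 on the list of Wnt receptors and transducers, for the ligand gene Wnt3. The lowest Wnt target, at −1.24, was Mmp7, which is also on the Paneth list. Mmp7 stood at 51.4, 17.8 and 7.88 CPM in the Itgb7 KO libraries, against 143, 14.9 and 30.3 CPM in wild-type. Lower with no overlap were 2 of 16 Wnt receptors and transducers, 2 of 10 secretory and 2 of 8 absorptive genes, beside 3.4% of all genes. Wnt3 stood at 2.72, 1.62 and 2.15 CPM in the Itgb7 KO libraries, against 4.25, 4.96 and 3.73 CPM in wild-type. For S-phase and for G2 and M-phase genes the medians were 0.04 and −0.08. Slc12a2, with its values above, and Sox9, at 119, 160.0 and 173 CPM in the Itgb7 KO libraries, against 109, 145 and 142 CPM in wild-type, overlapped between the groups. Sp5 stood at 32.4, 36.8 and 35.1 CPM in the Itgb7 KO libraries, against 29.3, 40.8 and 29.6 CPM in wild-type, and Hes1 at 264, 319 and 328 CPM in the Itgb7 KO libraries, against 249, 325 and 315 CPM in wild-type. A p that misses the threshold does not show that these genes were alike. Of the genes of adhesion, Cdh1, the E-cadherin that αEβ7 binds, stood at 162, 133 and 138 CPM in the Itgb7 KO libraries, against 159.8, 154 and 157 CPM in wild-type, a log2 fold change of −0.16 ± 0.16. Itgb1, the β1 integrin chain, stood at 58, 75.0 and 73.1 CPM in the Itgb7 KO libraries, against 49.99, 68.6 and 59.9 CPM in wild-type, a fold change of 0.16 ± 0.14. Itgae gave 0, 0 and 0 UMIs in Itgb7 KO members and 4, 0 and 1 in wild-type, and Itga4 gave 0 in all members.

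**Figure D5:**
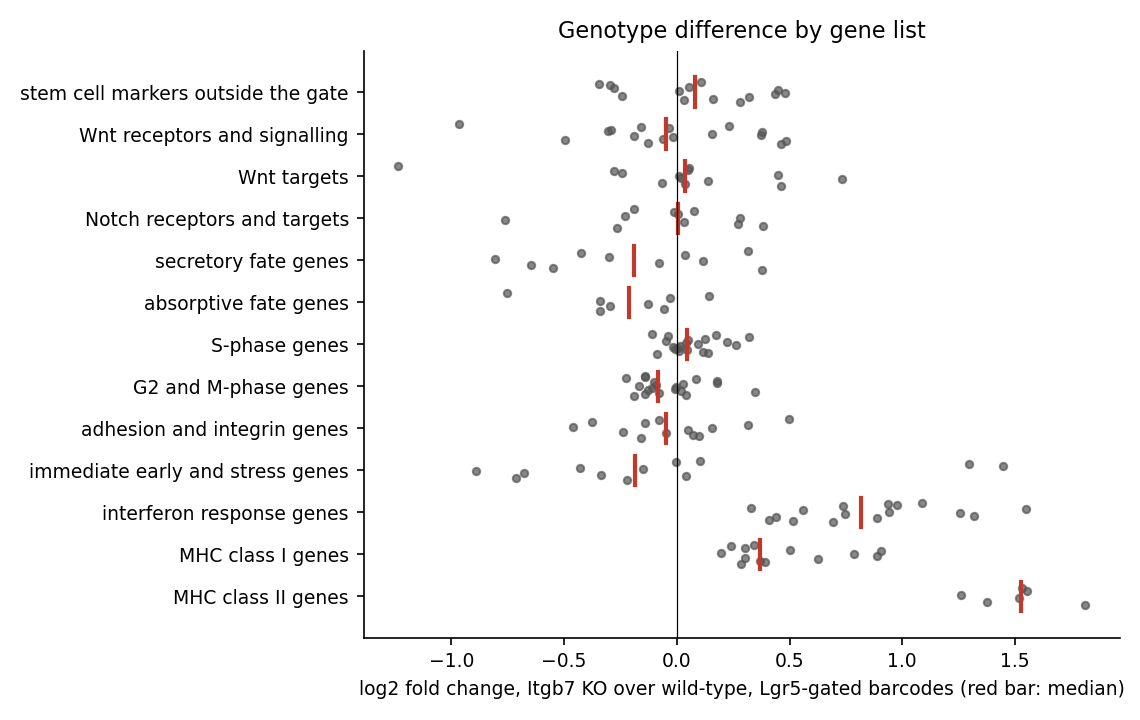
Log2 fold change of Itgb7 KO over wild-type in members (horizontal axis) for the tested genes of 13 lists (vertical axis), with 1 point per gene and a red bar at the list median. All class II points lie above 0 with a median of 1.53, and the medians of the stem cell, Wnt and Notch lists lie between −0.05 and 0.08.

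Markers of mature cells found in members varied between libraries, and edgeR with genotype as the only term called none of them. The goblet markers summed to 3938, 1981 and 1959.8 CPM in Itgb7 KO members and 7285, 2586 and 3763 CPM in wild-type members, with overlap, and all 7 had a log2 fold change below 0 with a median of −0.89 (from −1.40 to −0.38 over 19 settings). The Paneth markers summed to 4822, 579.5 and 466 CPM in Itgb7 KO and 20504, 393 and 863 CPM in wild-type, with a median of −1.85 that ranged from −4.13 to 1.74 over 19 settings and was −0.36 without both libraries numbered 1. Enteroendocrine markers summed to 106, 258 and 532 CPM in Itgb7 KO and 735, 127 and 106 CPM in wild-type, with overlap. Of 7 tested, 4 had a log2 fold change above 0, with a median of 0.25, and 2.19 without both libraries numbered 1. Enterocyte markers had a median of −0.22. Without the 10% of members richest in such markers the log2 fold change was −2.84 for Agpat4 and 1.77 for H2-Aa. The part of these transcripts in the values of other genes was not tested.

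Whether the genotype difference in members departed from that in the other kept barcodes was tested as an interaction over 12545 genes. For MHC class II the difference between the sets had a median of −0.10 over 7 genes on the log2 scale, from −0.59 to 0.06. Class II sums in the other barcodes were 856, 803 and 759.5 CPM in Itgb7 KO and 368, 70.9 and 260.4 CPM in wild-type, and edgeR called none of the 7 for the difference. Thus the class II difference was not shown to be particular to members. Of all genes, 3 were called for the difference (0.0239%), the Paneth gene Ang4, the chemokine gene Ccl9 and the goblet gene Fcgbp, and all 3 had a lower genotype ratio in members. Without wild-type replicate 2 the count was 23 and without wild-type replicate 3 it was 1. In simulated counts this test recovered 6% of genes changed 2-fold and 90% of those changed 4-fold. These counts too were drawn at a fixed dispersion, so the shares do not carry over to the real libraries.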

How the data were processed

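Single cells of 6 libraries were measured with 10x 3′ reagents of version 2. The authors deposited raw UMI counts for each gene in each barcode, without normalization. Cell Ranger 2.1.1, Seurat, bcl2fastq 2.17.1.14 and the mm10 build are named in the submitters' processing notes. Depth limits on barcodes differed between libraries before deposit, as their smallest UMI totals show.

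Of 26153 barcodes, 3 with under 500 genes and 107 with over 25% mitochondrial UMIs were left out. Lgr5 was found in 2724 of the rest, 2220 of them held at least 2 further genes, and 369 of these were left out for Atoh1 or Neurog3. Doublets were not called. Counts were summed per library and set, 27998 gene rows giving 27933 symbols. CPM is per 1000000 UMIs of a set.

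Sums were tested with edgeR 4.0.16 (quasi-likelihood, TMM, filterByExpr, Benjamini-Hochberg at 0.05) in R 4.3.3, with DESeq2 1.42.0 as an alternative. Genotype was the only term between genotypes. Set comparisons and the interaction had library as a block, and the 9 genes of the gate were removed before adjustment. Shares were taken after thinning barcodes without replacement to 4000 UMIs and tested by exact permutation (scipy 1.17.1). Python 3.11.15 was used, and the fits were tested on simulated counts of a fixed dispersion.

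Libraries of both groups are numbered 1 to 3. Deviations of members' log expression from the group means correlated at 0.561, 0.181 and 0.127 between libraries numbered 1, 2 and 3, so the number was also used as a block. Itgb7 KO replicate 3 correlated more with wild-type replicate 2 (0.414) than with its own number, and Itgb7 KO replicate 2 with wild-type replicate 3 at 0.141. The labels do not say what a shared number means. A serial number in the names of the deposited data sets both libraries numbered 1 apart from the other 4, and was used as another block. The serial number of Itgb7 KO replicate 3 came directly before that of wild-type replicate 2.

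The members and the 28 gene lists were chosen with earlier results of these data known. An earlier analysis had already shown the class II and Agpat4 differences in stem-like clusters, so these values are not independent support. The text names the 9 genes of the gate, Itgb7, Itgae, Itga4, Itgb1, Cdh1, Agpat4 and Mtus2, and the 10 genes with the smallest genotype p. It also names, for each set comparison, the 12 genes higher and 8 lower with the largest change among called genes that averaged 5 log2 CPM or more and had 1 direction in 6 of 6 libraries, and up to 4 genes per list by call and by level. Positions come from GENCODE M21 (mm10).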

Additional observations from a re-analysis of the deposited data

Results flagged for a closer look

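For 3 genes the genotype effect in members differed from that in the other kept barcodes, by edgeR's test of the difference itself. Ang4, a Paneth cell antimicrobial gene, had a difference of −1.61 ± 0.15 on the log2 scale (SE, edgeR adjusted p = 0.000587). It stood at 57.4, 2.59 and 2.87 CPM in Itgb7 KO members and at 250.1, 4.50 and 17.6 CPM in wild-type members. In the other barcodes it stood at 783, 21.5 and 29.5 CPM in Itgb7 KO, against 1028, 26.1 and 70.3 CPM in wild-type. Both libraries numbered 1 were far above the rest in each set. Ccl9, a chemokine gene, had a difference of −1.14 ± 0.13 (edgeR adjusted p = 0.00396). It stood at 33.2, 9.70 and 16.5 CPM in Itgb7 KO members, against 46.5, 33.8 and 41.6 CPM in wild-type members. In the other barcodes it stood at 384, 148 and 164 CPM in Itgb7 KO, against 230, 223 and 222 CPM in wild-type. Fcgbp, a mucus protein of goblet cells, had a difference of −0.68 ± 0.09 (edgeR adjusted p = 0.0156). It stood at 233, 113 and 121 CPM in Itgb7 KO members, against 428, 156 and 259.8 CPM in wild-type members. In the other barcodes it stood at 2074, 1149.9 and 1241 CPM in Itgb7 KO, against 2550.4, 1101 and 1416 CPM in wild-type. These genes were called in 9, 7 and 7 of 10 settings, in the order given. All 3 were far lower in members than in the others, and the part of transcripts from other cells was not tested.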

How the results depend on the processing

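Between genotypes, the count of called genes in members was 0 with genotype as the only term. It was 7 with the replicate block, 4 with the serial-number block, 6 with DESeq2, 1 without a filter on low counts and 1 with the gate applied at 4000 UMIs. The serial-number block called Agpat4, Hbegf, Psmb8 and Zfp36, and each single call was Agpat4. It was 0 under the other settings and each time 1 library was left out (0 to 0). Of 155 named genes tested, 67 turned their sign in 1 or more of 18 other settings. Their log2 fold changes were up to 2.50 in size. None of 25 genes listed setting by setting did. These 25 included the 10 genes with the smallest p and class II, class I and interferon genes, so the choice favoured stable signs. Agpat4 ranged from −4.15 to −2.60 and H2-Aa from 1.29 to 2.33 over 19 settings. Against cycling barcodes 5746 genes were called, and 2498 without the library block. Leaving out 1 library gave 7605 to 8193 calls against the others and 5148 to 5854 against cycling barcodes. The interaction gave 3 calls, 90 without a filter, 5 without Itgb7 KO replicate 3, 23 without wild-type replicate 2 and 1 without wild-type replicate 3 (1 to 23 over libraries left out). The log2 share ratio of −0.09 was 0.020 with Igfbp4 out of the gate, 0.07 without Itgb7 KO replicate 1 and 0.14 without wild-type replicate 2 (−0.26 to 0.14 over libraries left out), and the replicate block left it at −0.09 (exact sign-flip test, p = 0.75). The cause of these changes was not tested. The replicate block was used only between genotypes in members and for the share ratio, and not in the set comparisons or the interaction. Depth limits the gate, since shallow barcodes can miss Lgr5. The exclusion for Atoh1 or Neurog3 took 114 of 379 otherwise passing barcodes in wild-type replicate 1 and 15 of 232 in Itgb7 KO replicate 3. Their medians were 38659.5 and 7666 UMIs, against 23984 and 5889 in members. Barcodes so excluded stand among the others, with Slc12a2 at 161, 409 and 509 CPM in Itgb7 KO and 130, 358 and 317 CPM in wild-type.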
